A study of Mus musculus with 3 samples.

Results

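The loci of 6 T-box genes, Tbx1, Tbx2, Tbx3, Tbx5, Tbx18 and Tbx20, were examined for TBX1 ChIP-seq peaks in whole mouse embryos, to ask whether TBX1 occupied its own locus and those of related factors. All peaks and consensus regions within 500 kb of each gene body were taken. This gave 7 regions of the 711 formed by merging the peaks of 3 replicates, made up of 3 of the 146 peaks of replicate 1, 7 of the 646 peaks of replicate 2 and 3 of the 296 peaks of replicate 3. Peaks near Tbx1 were found in all 3 lists. Tbx18 and Tbx20 each had a region found in 2 lists, Tbx3 and Tbx5 shared a single peak of replicate 2, and Tbx2 had no peak within 500 kb, so that the data do not place it among loci with a TBX1 peak. There was 1 condition with 3 biological replicates, each a pool of 20 whole embryos of mixed strain at embryonic day 9.5. All embryos were double homozygous for Tbx1 3'-Avi, a biotin acceptor tag at the end of the endogenous Tbx1 gene, and for a Gt(ROSA)26Sor allele that expresses the biotin ligase BirA, from a line of FVB;129P2 origin, and tagged TBX1 with its crosslinked DNA was recovered on streptavidin beads. No embryos without the tag were analysed here, and since whole embryos were pooled, the cells in which a peak arose are not known.

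T-box proteins are transcription factors that contact DNA through a shared T-box domain, and their recognition elements are built from short words such as GGTGTGA. Because the domain is shared, members of the family can recognise similar DNA, and several of them act in the same heart and pharyngeal progenitors. TBX1 is required in the pharyngeal apparatus for the outflow tract and the branchiomeric muscles, and loss of a copy of the human gene underlies much of DiGeorge syndrome. TBX5 and TBX20 act in heart formation, TBX2 and TBX3 are mainly repressors that keep parts of the heart tube from taking on a chamber fate, and TBX18 marks the venous pole and epicardium.

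The sequences at the 4 regions found in at least 2 lists are shown because these are the replicated sites of the family. Each is the 300 bp centred on the mean summit, read from the plus strand of NCBIM37 (mm9), with matches on either strand to GGTGTGA, to the spaced word GGTGNTGA or to the short word TGACAG in capitals. On the opposite strand these read TCACACC, TCANCACC and CTGTCA. The end of the spaced word can overlap the start of the short one. A match is a description of the sequence, and which protein binds any of these words was not tested.
Tbx1 downstream, chr16:18509369-18509668: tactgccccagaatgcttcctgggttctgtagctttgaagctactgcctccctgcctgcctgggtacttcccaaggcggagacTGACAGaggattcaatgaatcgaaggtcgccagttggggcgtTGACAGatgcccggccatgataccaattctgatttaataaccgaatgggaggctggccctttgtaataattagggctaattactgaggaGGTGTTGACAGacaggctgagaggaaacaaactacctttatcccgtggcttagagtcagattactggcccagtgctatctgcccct
Tbx1 upstream, chr16:18601588-18601887: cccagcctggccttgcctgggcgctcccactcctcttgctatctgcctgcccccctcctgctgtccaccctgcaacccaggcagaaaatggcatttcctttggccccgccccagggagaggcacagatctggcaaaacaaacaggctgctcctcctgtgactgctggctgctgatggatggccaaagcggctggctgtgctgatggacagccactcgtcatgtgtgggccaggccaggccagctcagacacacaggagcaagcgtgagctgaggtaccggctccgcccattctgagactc
Tbx18 end, chr9:87597209-87597508: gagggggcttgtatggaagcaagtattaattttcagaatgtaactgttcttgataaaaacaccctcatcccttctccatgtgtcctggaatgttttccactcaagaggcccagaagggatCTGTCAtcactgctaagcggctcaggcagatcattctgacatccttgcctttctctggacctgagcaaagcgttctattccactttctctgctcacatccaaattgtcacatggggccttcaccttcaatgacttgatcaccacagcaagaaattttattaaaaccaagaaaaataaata
Tbx20 distal, chr9:24087568-24087867: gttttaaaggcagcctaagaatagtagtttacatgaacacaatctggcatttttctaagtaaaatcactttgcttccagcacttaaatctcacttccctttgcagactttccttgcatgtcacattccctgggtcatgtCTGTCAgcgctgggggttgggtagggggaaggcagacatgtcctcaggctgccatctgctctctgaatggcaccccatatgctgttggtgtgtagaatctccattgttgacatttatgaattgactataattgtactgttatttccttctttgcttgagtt
Tbx1, Tbx18 and Tbx20 lie on the minus strand. None of the 4 windows overlapped an annotated exon.

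Tbx1 (chromosome 16, 18581806 to 18588113) had 3 regions within 500 kb, of which 2 were found in all 3 lists and in the consensus list. The first of these lay 72.0 kb downstream of Tbx1, from 18509211 to 18509800, in an intron of Gnb1l, the neighbouring gene, which encodes a WD40-repeat protein. Its fold enrichment was 11.2 in replicate 1, 14.5 in replicate 2 and 10.4 in replicate 3 (mean 12.0 ± 2.17, SD, n = 3), and its −log10 q-value was 18.0, 30.7 and 18.4, respectively. These values placed it at rank 6 of 146, 19 of 646 and 26 of 296 peaks, and its mean percentile within the lists was 95.0 ± 3.02 (SD, n = 3). Among the 93 regions with a peak in every list, it ranked 9 by mean percentile. The peak was also broad in replicates 2 and 3, where its widths of 575 and 473 bp ranked 11 of 646 and 8 of 296. In replicate 1 its width of 238 bp ranked 49 of 146.

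The other region in all 3 lists lay 13.5 kb upstream of Tbx1, from 18601616 to 18601948, in an intron of 4930588K23Rik, a noncoding transcript that runs away from Tbx1 on the plus strand. Here the fold enrichment reached 9.11 in replicate 1, 9.05 in replicate 2 and 9.64 in replicate 3 (mean 9.27 ± 0.328, SD, n = 3), with −log10 q-values of 12.3, 17.0 and 16.2. The ranks were 20 of 146, 99 of 646 and 33 of 296, with a mean percentile of 86.8 ± 2.14 (SD, n = 3), which was rank 27 of the 93 regions. The fold enrichment varied little between replicates here, whereas at the downstream region replicate 2 stood above the others. The downstream region had the higher fold enrichment in each replicate, by 2.07, 5.41 and 0.714, a mean difference of 2.73 ± 2.42 (SD, n = 3), which was 1.39 without replicate 2. With 3 pairs, the exact paired permutation test cannot pass the threshold (two-sided, 1 pair of regions compared, p = 0.25, the smallest it allows).

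Another Tbx1 region was called only in replicate 2, 121.4 kb downstream in an intron of Txnrd2, which encodes a mitochondrial thioredoxin reductase (18460175 to 18460400). With a fold enrichment of 6.36, a −log10 q-value of 10.2 and rank 309 of 646, it lay near the middle of that list, and it was not in the consensus list. The nearest region beyond the 500 kb limit lay 771.8 kb downstream of Tbx1, with Scarf2 as the nearest gene by start site, and was found in all 3 lists, with a fold enrichment of 6.62, 6.64 and 7.93. It is not counted among the Tbx1 regions. Of the regions counted, the most distant was that of Tbx20.

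**Figure D1:**
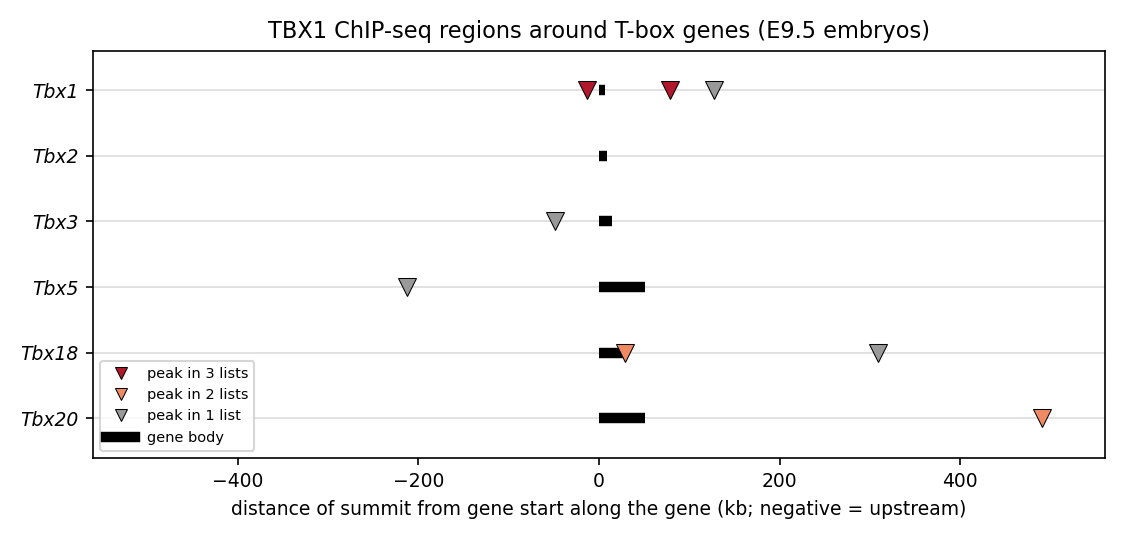
Position of the regions within 500 kb of each T-box gene. The horizontal axis is the distance of the mean summit from the gene's annotated start in kb, with negative values upstream, black bars are gene bodies, and the colour of a triangle gives the number of replicate lists with a peak (red 3, orange 2, grey 1). Tbx1 alone has triangles for all 3 lists, Tbx2 has none, and the same peak appears 48.5 kb upstream of Tbx3 and 212.5 kb upstream of Tbx5.

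The gene assignment of the Tbx1 regions differed. For the upstream region, the annotated start of Tbx1 was the nearest protein-coding start site at 13.6 kb, ahead of Gp1bb, a platelet glycoprotein gene, at 20.8 kb. For the downstream region, the start sites of Gm16314 and Gnb1l lay at 10.5 and 10.7 kb and that of Tbx1 was the third nearest at 78.6 kb, with no other protein-coding start site between the region and Tbx1. At the Txnrd2 region, Tbx1 was only the seventh nearest, and 24 protein-coding genes lay within 500 kb. No peak of any list overlapped the Tbx1 gene body. The 3' end of Tbx1, where the tag was inserted, lay 19.8 kb from the nearest peak. There was also no peak within 1 kb of the annotated start of any of the 6 genes, and over all protein-coding genes of GENCODE vM1 only 0.264% (59 of 22367) had such a peak.

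Tbx18 (chromosome 9, 87597635 to 87626095) had a region just past its 3' end, 0.109 kb downstream, from 87597191 to 87597526. The fold enrichment was 6.21 in replicate 1 and 9.24 in replicate 2 (mean 7.72 ± 2.14, SD, n = 2), with −log10 q-values of 5.27 and 14.3, and no peak was called in replicate 3. The lists placed it differently, at rank 79 of 146 and 90 of 646, so that its mean percentile of 65.4 had an SD of 29.1 (n = 2). Tbx18 was the nearest protein-coding gene by start site, at 28.7 kb, and only 2 protein-coding genes lay within 500 kb of the region, which makes it the least crowded of the 7. Replicate 2 had a further peak 280.4 kb downstream of Tbx18, from 87317067 to 87317214, with a fold enrichment of 5.47, a −log10 q-value of 4.40 and rank 424 of 646. This was the weakest of the 7 regions and lay nearer to the start sites of 4922501C03Rik (166.8 kb) and Mrap2 (278.1 kb), which encodes a melanocortin receptor accessory protein.

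Tbx20 (chromosome 9, 24527648 to 24578746) had a strong but distant region, 439.8 kb downstream from 24087615 to 24087895, in an intron of Npsr1, the gene of the neuropeptide S receptor. Its fold enrichment was 12.9 in replicate 2 and 11.4 in replicate 3 (mean 12.2 ± 1.04, SD, n = 2), and the −log10 q-values were 25.5 and 21.9. It ranked 28 of 646 and 17 of 296, yet no peak was called in replicate 1. Its mean percentile over both lists, 95.0 ± 0.996 (SD, n = 2), did not differ from that of the downstream Tbx1 region beyond the spread between replicates. Tbx20 was the fifth nearest protein-coding gene by start site, behind Npsr1 at 185.3 kb, and the start sites of Dpy19l1, Dpy19l2 and Cypt4 lay between the region and Tbx20. This is the only region through which Tbx20 enters the consensus list.

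Tbx3 (chromosome 5, 120120678 to 120134733) and Tbx5 (120284672 to 120335227) are neighbours, and their only region was the same peak of replicate 2, from 120072061 to 120072268. It lay 48.4 kb upstream of Tbx3 and 212.4 kb upstream of Tbx5, in an intron of Gm2301, a noncoding transcript on the opposite strand that starts within Tbx3. The fold enrichment was 7.82 and the −log10 q-value 10.2, at rank 163 of 646. It therefore lay above the median of its list but was not repeated in replicates 1 and 3 and was not in the consensus list. The nearest consensus region was 4390.1 kb from Tbx3 and 4189.6 kb from Tbx5. Tbx2 (chromosome 11, 85646053 to 85655450) was 1584.6 kb from the nearest peak, a replicate 2 peak in an intron of Tex14, with a fold enrichment of 5.54 and rank 421 of 646. For Tbx2 the nearest consensus region was 1620.1 kb away.

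**Figure D2:**
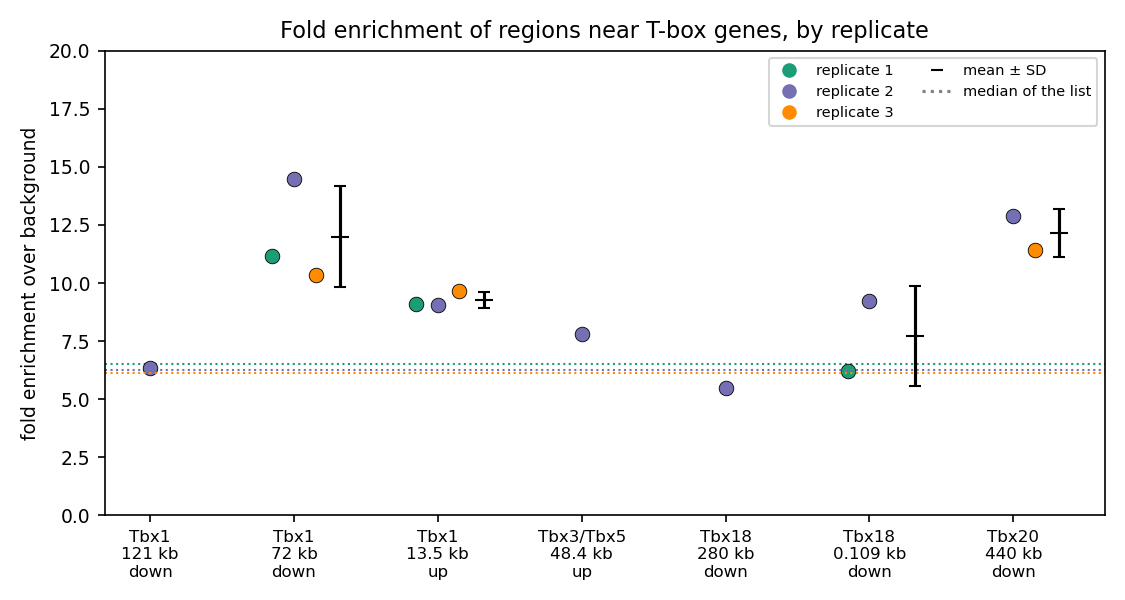
Fold enrichment of each of the 7 regions in the replicates with a peak. The vertical axis is the fold enrichment over local background at the summit, coloured points are replicates, black bars are mean ± SD where there are at least 2 values, dotted lines are the medians of all peaks of each list (6.51, 6.25 and 6.14), and labels give the gene and the distance of the region from its body. The points of the upstream Tbx1 region lie between 9.05 and 9.64, and those of the downstream region between 10.4 and 14.5, without overlap.

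Within their own lists, the peaks near the T-box genes were mostly in the upper part. Of these peaks, 2 of 3 in replicate 1, 6 of 7 in replicate 2 and 3 of 3 in replicate 3 exceeded the median fold enrichment of the list. Their median percentile was 86.6, 84.8 and 91.6, respectively. These 13 peaks came from 7 regions, so a region found in several lists counts once in each of them. Ordered by mean percentile, the regions were Tbx1 downstream and Tbx20, followed by Tbx1 upstream, Tbx3/Tbx5 at 73.8, the Tbx18 end, the Txnrd2 region of Tbx1 at 52.1 and the distal Tbx18 peak at 33.7. The place of the Tbx18 end in this order is not settled by its 2 values. Ties limit the resolution of the ranks, since the peaks took 92, 308 and 156 distinct fold values in replicates 1, 2 and 3 and the Tbx3/Tbx5 peak was among 16 peaks of replicate 2 with the same value. No sequencing depth could be tied to a list, so that counting error is not included in these values.

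**Figure D3:**
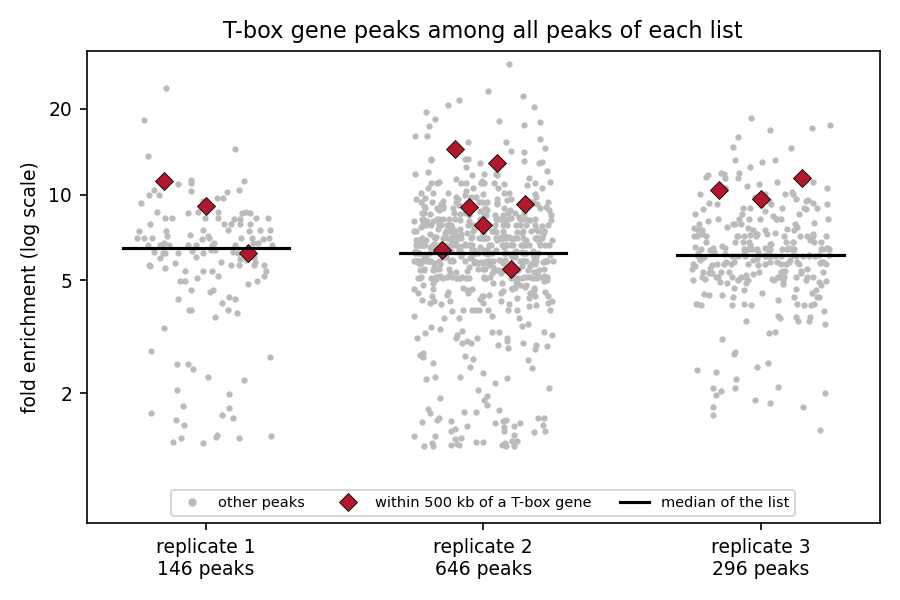
Fold enrichment of all peaks in each replicate list. The vertical axis is fold enrichment on a log scale, grey points are other peaks, red diamonds are the 3, 7 and 3 peaks within 500 kb of a T-box gene, and black lines are list medians. All but 1 of the diamonds in replicate 1, all but 1 in replicate 2 and all 3 in replicate 3 lie above the median.

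Against all 22367 protein-coding genes, the share of T-box genes near a peak depended on how many lists were required. A peak of any list was within 500 kb of 5 of the 6 members, through 4 separate loci because Tbx3 and Tbx5 share theirs, against 27.1% of all protein-coding genes. By replicate, the numbers were 2 of 6 in replicate 1 (7.03% of all genes), 5 of 6 in replicate 2 (25.4%) and 2 of 6 in replicate 3 (13.9%). Without replicate 2, the members with a peak fell to 3 of 6, and with all lists they were also 3 of 6 at a distance of 50 or 100 kb. The shares of all genes at these settings were not computed, so these counts have no background beside them. A region of the consensus list, which is not a plain intersection of the 3 deposited lists, was within reach of 3 of the 6 members, against 12.9% of all genes, and a region in all 3 lists of 1 of 6, Tbx1, against 4.9%. Tbx1 was 1 of 65 protein-coding genes (0.291%) with at least 2 such regions within 500 kb, and the highest number for any gene was 3. These background genes include the neighbours of the same regions, 23 of them within 500 kb of the downstream Tbx1 region alone, so they are not independent of each other. The 6 members were chosen with earlier results of these data known. The comparison with all genes is therefore a description and cannot test for enrichment at T-box genes.

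Measured as a distance, Tbx18 at 0.109 kb from the nearest peak of any list and Tbx1 at 13.5 kb were among the nearest genes, with 1.38% and 2.23% of protein-coding genes as near or nearer. For Tbx3 this share was 4.25%, for Tbx5 13.6%, for Tbx20 24.6% and for Tbx2 57.0%. To the consensus list, the shares were 0.545% for Tbx18, 0.894% for Tbx1 and 11.5% for Tbx20. Tbx2 followed at 31.6%, and Tbx5 and Tbx3 at 59.0% and 60.8%. The order of the members thus changed between the lists, with Tbx2 nearer to a consensus region than Tbx3 or Tbx5.

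**Figure D4:**
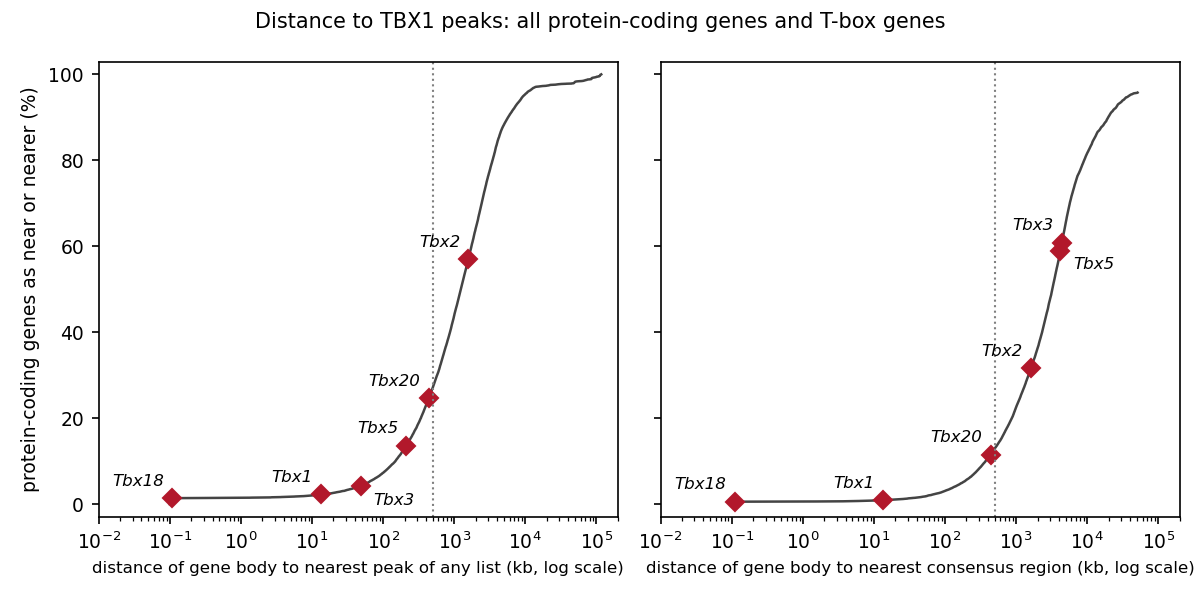
Distance of gene bodies to the nearest TBX1 peak of any list (left) or consensus region (right). The horizontal axis is distance in kb on a log scale, the grey curve gives the percentage of all 22367 protein-coding genes at that distance or nearer, with genes that overlap a peak drawn at the left end, red diamonds are the 6 T-box genes, and the dotted line is 500 kb. Tbx18 and Tbx1 are at the left in both panels, while Tbx3 and Tbx5 move from the near side of the line for any list to the far side for the consensus list.

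Of the 11 other mouse T-box genes, 4 had a peak within 500 kb and 1 a consensus region, where 27.1% and 12.9% of all protein-coding genes did. Tbx15, which acts in limb and skin development, had a region in all 3 lists 412.3 kb downstream, near Spag17, enriched 7.45-fold in replicate 1, 5.86-fold in replicate 2 and 4.64-fold in replicate 3, and a second peak of replicate 2 at 460.9 kb with a fold enrichment of 6.35. Mga (316.2 kb, fold enrichment 5.86) and Tbx10 (239.8 kb, 5.08) each had a single peak of replicate 2, and Tbx21, the T-bet gene of T helper cells, had a single peak of replicate 3 (196.4 kb, 5.24). For 7 genes no peak was within 500 kb. The nearest of these was Tbx19, at 540.4 kb from a region in an intron of Rcsd1 found in every list. Tbx4, next to Tbx2, was 1510.4 kb from a peak, T (Brachyury) 818.0 kb and Eomes 3090.2 kb. Within 500 kb, the highest fold enrichment at these 11 genes was the 7.45 of Tbx15, below every value of the Tbx20 region and of the Tbx1 regions found in all 3 lists.

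Words were most frequent in the downstream Tbx1 region. Its 300 bp held 4 matches, TGACAG at 3 positions and 1 spaced word, GGTGTTGA, which runs into the last TGACAG to form GGTGTTGACAG, a run singled out after the values were seen. The summit of replicate 1 fell inside the middle TGACAG, 0.5 bp from its centre, and that of replicate 2 lay 3.5 bp from the centre, whereas the summit of replicate 3 was 28.5 bp from the last TGACAG. At the Tbx20 region the single CTGTCA, which is TGACAG on the minus strand, was centred 8.5 bp from the summit of replicate 2 and 26.5 bp from that of replicate 3. At the Tbx18 end the only match was CTGTCA as well, 4.5 bp from the summit of replicate 2 and 59.5 bp from that of replicate 1. The distal Tbx18 peak held 2 copies of CTGTCA, 45.5 and 57.5 bp from its summit. The upstream Tbx1 region, the Txnrd2 region and the Tbx3/Tbx5 peak held none of the 3 words, which says only that these letters are not in the windows.

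**Figure D5:**
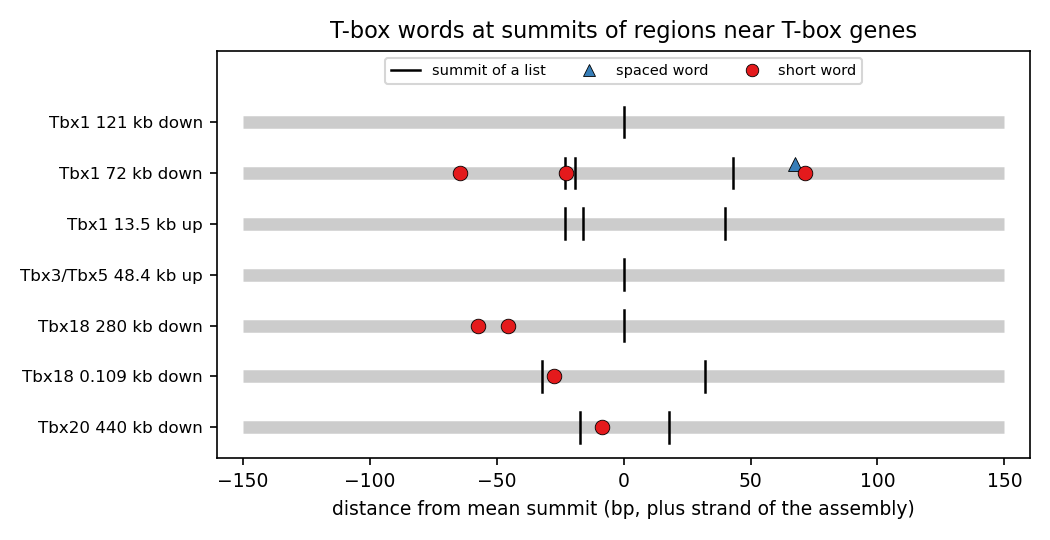
Words at the summits of the 7 regions. The horizontal axis is the distance from the mean summit in bp on the plus strand of the assembly, black ticks are the summits of the replicate lists, red circles are short words and the blue triangle is the spaced word. The downstream Tbx1 region holds 3 short words and the spaced word, the Tbx18 end and Tbx20 regions each hold 1 short word between their summits, and 3 regions hold none.

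Thus 4 of the 7 regions held at least 1 of the words, against 58.4% of all 711 regions and 24.8% and 24.3% of equally wide windows placed 5 kb to the left and right. All 4 held TGACAG, which was in 45.7% of all regions and in 18.4% and 18.0% of the windows beside them. The words were chosen with earlier results of these data known, so an excess over those windows is a description and not independent support. GGTGNTGA was in 1 of 7 and in 21.4% of all regions, against 4.08% and 4.78% of those windows. GGTGTGA was in 0 of 7, in 5.06% of all regions and in 3.94% and 3.80% of the windows beside them. For the 93 regions in all 3 lists it was in 1.08%, against 4.3% of the windows on each side. For regions in 2 lists it was in 6.45%, against 3.23% and 2.15%, and for regions in 1 list in 5.32%, against 4.17% and 4.4%. The longer run found at Tbx1 was present in 34 of the 711 regions (4.78%), in 0 of the windows to the left and 1 to the right. Where a summit window held TGACAG, the nearest copy was a median of 26.5 bp from the mean summit over 325 windows. In the windows 5 kb away it was 72.5 bp from the centre over 259 windows. Any of the words was in 57.1% of the regions near the T-box genes, close to the share of all regions. Single words differed more, at 57.1% for TGACAG, 14.3% for GGTGNTGA and 14.3% for the longer run. With only 7 regions these shares are coarse, and the differences were not tested. The GC content of the 7 windows ran from 42.7% at the Tbx18 end to 62.7% at the upstream Tbx1 region, where the median of all regions was 50% with quartiles of 45.5% and 54.3%.

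The summits of each replicated region spanned more than the median of regions found in as many lists. They spanned 66 bp at the downstream and 63 bp at the upstream Tbx1 region, against a median of 46 bp (quartiles 26 and 72) over the 93 regions in all 3 lists. For the regions in 2 lists, the summits were 35 bp apart at Tbx20 and 64 bp apart at Tbx18, against a median of 31 bp (quartiles 13 and 59) over 186 regions, so that the Tbx18 summits lay beyond the upper quartile. Of the 7 regions, 3 were called in a single list, each time replicate 2, and of all 711 regions 432 (60.8%) were called in a single list, 370 of them in replicate 2. Regions found in all 3 lists made up 2 of 7 near the T-box genes and 13.1% of all regions.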

How the data were processed

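TBX1 ChIP-seq was performed by the authors on 3 biological replicates of 20 whole embryos each at embryonic day 9.5, all of 1 condition. Per the labels and the paper's methods, reads were cleaned with cutadapt and Trim Galore, mapped to mm9 with Bowtie2 2.3.4 and filtered for proper pairs, duplicates and unique positions. Peaks were then called separately for each library by MACS2 2.1.2.1 with input as control. The deposited fold enrichment is a ratio to the local background at the summit, and the deposited p-value and q-value are −log10 values. The score deposited by the authors repeats the q-value and was not used. Per the paper's methods, the consensus BED was built with bedtools 2.29 from regions found in 2 or more replicates, with blacklisted loci removed. An intersection of the deposited lists does not give it: of its 255 regions, 217 overlapped peaks of 2 or more lists, 35 those of 1 list and 3 none, and 239 extended past the peaks they overlapped. The numbers of peaks per replicate given in the paper also differ from those of the deposited lists. The consensus was therefore treated as a separate list. The labels name an antibody for the pull-down, and the paper's methods streptavidin beads. The peak lists hold no read counts and the depths given in the paper, which are similar for the 3 replicates, could not be tied to single lists, so counting error is unknown.

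Peaks of the 3 lists were merged when they overlapped by at least 1 bp. Distances were measured to GENCODE vM1 gene limits on NCBIM37 (mm9), with 1-based coordinates. Ranks and percentiles were taken within each list, with ties given their mean percentile. Words were searched on both strands of 300 bp centred on the mean summit. The only test was an exact paired permutation test over replicates. Python 3.11.15, numpy 2.4.6, pyfaidx 0.9.0.4 and matplotlib 3.10.9 were used, and the merging, ranking and word functions were tested on simulated data. The 6 members, the other T-box genes and the words were chosen with earlier results of these data known. All members are named, as are T-box genes with a peak within 500 kb and host or nearest genes of each region. A comparison with genes nearest to at least 2 regions shared by all lists is not reported here.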

Additional observations from a re-analysis of the deposited data

How the results depend on the processing

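Of 58 values recomputed under other settings, 46 stayed the same within 1.5 times for counts, within 1 SD over replicates for ranks or in sign for the difference, 12 moved and 0 reversed. By this rule the members with a consensus region counted as the same, although they fell from 3 within 500 kb to 2 within 50 kb and 2 within 100 kb. The distance counted as near was the first choice that mattered: 3 members had a peak within 50 kb and 3 within 100 kb, against 5 within 500 kb, and the number of regions was 3 and 4, against 7. The share of all protein-coding genes also falls with distance. It was 27.1% within 500 kb and 4.25% within 48.4 kb, the distance of Tbx3, and was not computed at 50 or 100 kb. Leaving out each replicate in turn gave 3 to 5 members with a peak, 1 to 2 members with a region in every remaining list, and 4 to 7 regions. The shares of all protein-coding genes with a replicate left out were not computed, so these counts have no background beside them. The lowest number of members and of regions came without replicate 2, and the 2 members with a region in every remaining list came without replicate 1 or without replicate 3, where fewer lists are needed by construction. At q under 1e-05 the mean percentile of the region upstream of Tbx1 was 82.2 in place of 86.8, in shorter lists of stronger peaks. Of the 7 regions, 0 held GGTGTGA, 1 held GGTGNTGA and 1 held the latter running into TGACAG, an alternative chosen after seeing the data. The difference between the Tbx1 regions, paired by replicate, was 1.39 without replicate 2 and 3.74 without replicate 3. With 1 group, no groups could be paired by replicate number. Sequencing depths, similar between replicates, could not be tied to single lists, and a missing peak in a list shows only that none was called there.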
